A study of Mus musculus with 12 samples.

Results

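A list of 10 plasma membrane amino acid transporter genes was followed in mouse embryonic stem cells over 3 days of a course that deletes the histone deacetylase genes Hdac1 and Hdac2. The genes, chosen by gene symbol, were Slc38a5, Slc6a15, Slc7a5, Slc7a3, Slc7a1, Slc3a2, Slc1a5, Slc1a4, Slc38a1 and Slc38a2. The group was picked because the signal of Slc38a5 rose and that of Slc6a15 fell strongly in these same arrays, so the values of these 2 genes are described here with no test. Of the 10 genes, 9 had probes in the probe annotation of the series, among 19057 genes with a named probe in all. Slc7a5 was not analysed here. The 9 genes had 24 probes, of which 12 probes of 7 genes were detected on at least 3 of the 12 arrays (detection p under 0.01) and 11 were never detected.

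The cells were of the E14 line, with Hdac1 and Hdac2 each floxed on both alleles and with CreER, the form of Cre that becomes active in 4-hydroxytamoxifen (OHT). They were grown without feeder cells on gelatin in serum with LIF, and 16 hours of OHT induced the deletion. Groups were day 0, called wild type by the series design, and days 1, 2 and 3, with 3 arrays each. The label of day 0 also names OHT, and whether those cells met it is not stated. All groups share the floxed alleles and CreER, and no cells given OHT without the floxed alleles, or kept as long without OHT, are among the samples. Whether replicates came from separate cultures is not stated, and the p-values below therefore cover only the spread between these samples. The deletion could not be checked, since 0 named probes were for Hdac1 and the tables used here do not say whether the 2 probes of Hdac2 lie in the deleted part. Hdac2 probe ILMN_2640441 had a log2 intensity of 13.24, 13.12 and 13.60 at day 3 against 13.70, 13.40 and 13.65 at day 0, which overlapped (limma adjusted p of 0.167). The dim Hdac2 probe ILMN_1231785 was detected on 0 arrays at day 3 and 3 at day 0, and was at least 1.3-fold lower at day 3 (limma adjusted p of 0.00384).

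Amino acids enter cells through carriers of the solute carrier (SLC) families, which differ in the amino acids they take and in whether they are driven by sodium or by exchange. SLC38 members carry small neutral amino acids such as glutamine with sodium, and SLC6 and SLC1 members also use sodium. SLC7 members carry cationic amino acids, or pair with the heavy chain encoded by Slc3a2 to exchange large neutral ones. Embryonic stem cells grow fast and depend on imported amino acids, and mouse embryonic stem cells are known for their need of threonine and glutamine.

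The 12 arrays had an upper quartile of deposited intensity of 272.2 to 382.2 and between 14509 and 16770 detected probes. After normalization the correlation across genes was 0.98 to 0.994 within a day. Of the 12 embryonic stem cell markers listed, 12 were detected. At day 3 against day 0, where 20.7% of all genes tested rose and 17.1% fell, 6 of them fell, Fgf4, Sox2, Nanog, Pou5f1, Zfp42 and Esrrb, and 0 rose, and their summed normalized intensity was 53274 to 55722 at day 3 against 77949 to 82569 at day 0. Of 10 trophectoderm markers 7 were measured, of which 5 rose (Gata3, Tfap2c, Krt7, Krt8 and Krt18) and Cdx2 fell, with a sum of 15421 to 17000 at day 3 against 10304 to 11615 at day 0, while Eomes, Elf5 and Hand1 were never detected. Gata3 was detected on 0 arrays at day 0 and was in the tested set only through later days. Of 12 extraembryonic endoderm markers 4 were measured (Amn and Dab2 rose, Sox7 fell), with a sum of 1931 to 2288 at day 3 against 519.9 to 549.1 at day 0. Amn alone made 1369 to 1795 of it at day 3 against 90.1 to 108.6 at day 0, and the other 3 markers summed to 492.7 to 561.6 at day 3 against 419.8 to 440.6 at day 0. Gata4, Sox17, Afp, Ttr, Cubn, Foxa2 and Lamb1 were never detected. Of 10 mesoderm markers 2 were measured (Actc1 and Myl7, both risen), with a sum of 421.6 to 507.2 at day 3 against 145.9 to 165.3 at day 0. Arrays that detected Actc1 numbered 0, 0, 1 and 3 at days 0, 1, 2 and 3, so it was in the tested set only through later days and its day 0 signal is not above background. Mesp1, Kdr, Hand1, Gsc and Tbx6 were never detected. Of 10 fibroblast markers 1 was measured (Thy1, risen), at 3007 to 4713 at day 3 against 1050 to 1298 at day 0, and Col1a2, Col3a1, Dcn, Lum, Pdgfrb and Postn were never detected. Of 10 neuroectoderm markers 3 were measured (Map2 rose). They summed to 2688 to 3491 at day 3 against 2067 to 2566 at day 0. The brightest of them, Otx2, had a mean log2 intensity of 11.18 at day 3 against 10.77 at day 0. Otx2 overlapped between these days and did not pass (limma adjusted p of 0.0531). Sox1, Pax6, Tubb3, Zic1, Neurog2 and Dcx were never detected. These lists move with the same comparisons as the transporters, and their part in the results below was not tested. In RNA from whole cultures, fewer cells of a type and less RNA per cell cannot be told apart.

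Promoter sequence is shown for Slc38a5, the one transporter of the list whose signal was higher at every later day, and for its family member Slc38a2, to set the letters before the start site beside the values. Both are the 250 bases before the annotated start in RefSeq (GRCm38.p6), 5′ to 3′ on the gene's strand, chrX:8271131-8271380 on the plus strand for Slc38a5 and chr15:96699729-96699978 on the minus strand for Slc38a2. Capitals mark the motifs found on either strand.
Slc38a5: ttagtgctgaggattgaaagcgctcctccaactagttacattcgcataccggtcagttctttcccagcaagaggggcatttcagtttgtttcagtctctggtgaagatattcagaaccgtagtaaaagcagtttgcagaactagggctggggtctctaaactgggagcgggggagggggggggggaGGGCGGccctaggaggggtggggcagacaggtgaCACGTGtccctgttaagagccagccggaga
Slc38a2: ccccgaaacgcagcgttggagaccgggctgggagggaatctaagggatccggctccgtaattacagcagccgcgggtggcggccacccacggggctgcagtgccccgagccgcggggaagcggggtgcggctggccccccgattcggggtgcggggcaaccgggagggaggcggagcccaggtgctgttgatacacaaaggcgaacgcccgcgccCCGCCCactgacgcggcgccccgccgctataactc
The following motifs were searched on both strands, the E-box CACGTG, the GC box GGGCGG and the C/EBP-ATF composite element TGATGNAA, and none of the matches overlapped another motif. Of the 10 genes, 5 had a promoter in the table, with 6 windows. The E-box was in 1 of these windows, that of Slc38a5, 30 to 25 bases before the start, and in 6.02% of all 32851 windows of that length. The GC box was in 5 of the 6 windows and in 32.7% of all. The composite element was in 0 of the 6 and in 3.45% of all, which says only that these letters are not in these windows.

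Slc38a5 encodes SNAT5, a sodium-coupled carrier of glutamine, histidine, serine and other neutral amino acids that can also run outward. Its 1 probe (ILMN_2649773) had a log2 normalized intensity of 7.51, 7.43 and 7.52 at day 0, 7.83, 7.85 and 7.62 at day 1, 9.18, 8.9998 and 9.04 at day 2, and 10.68, 10.49 and 10.73 at day 3. The arrays of each day lay above all arrays of the day before, with no overlap at any step. The mean was 10.64 ± 0.13 at day 3 against 7.49 ± 0.05 at day 0 (SD, n = 3 each), a log2 difference of 3.15 ± 0.12 (SE of the limma fit), or 8.86-fold. The differences from day 0 were 0.28 at day 1 and 1.59 at day 2, so that the later steps, 1.31 from day 1 to day 2 and 1.56 from day 2 to day 3, held most of the course. The deposited intensity before any normalization was 1034 to 2186 at day 3 against 280.5 to 379.7 at day 0, also without overlap. The size at day 3 depended on the processing, with a log2 difference of 2.29 with no background correction and 2.36 in the authors' deposited normalized values.

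Slc6a15 encodes B0AT2, a sodium-coupled carrier of branched-chain amino acids and proline that is best known from neurons. The probe with the highest signal (ILMN_1258914) had a log2 intensity of 8.96, 8.64 and 8.65 at day 0, 8.56, 8.15 and 8.45 at day 1, 7.53, 7.25 and 7.90 at day 2, and 6.63, 6.37 and 6.43 at day 3. The arrays of each day lay below all arrays of the day before. The mean was 6.47 ± 0.13 at day 3 against 8.75 ± 0.18 at day 0 (SD, n = 3 each), a log2 difference of -2.28 ± 0.18 (SE), or 4.85-fold lower. The log2 differences from day 0 at days 1 and 2 were -0.37 and -1.19. The day 3 difference was -1.18 with no background correction and -1.24 in the authors' deposited normalized values. At day 3 replicate 2 the value of 6.37 lay at the lowest detected signal of that array, also 6.37. The size of the fall thus rests partly on values near background.

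The other probes of Slc6a15 moved the same way at day 3, by less. Probe ILMN_1228104 had a log2 intensity of 7.40, 7.43 and 7.48 at day 0, 7.36, 7.13 and 7.29 at day 1, 6.74, 7.04 and 6.86 at day 2, and 6.81, 6.17 and 6.52 at day 3. Its log2 difference at day 3 was -0.94 ± 0.16 (SE), and 2 of the 3 day 3 arrays detected it. Its arrays of days 2 and 3 lay below those of day 0 and overlapped each other. Probe ILMN_2689230 was detected on 2, 2, 1 and 0 arrays of days 0, 1, 2 and 3, and was at least 1.18-fold lower at day 3 than at day 0. The remaining 2 probes of the gene were never detected. The 3 measured probes thus differ in size, and where each lies on the transcripts was not analysed here.

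**Figure D1:**
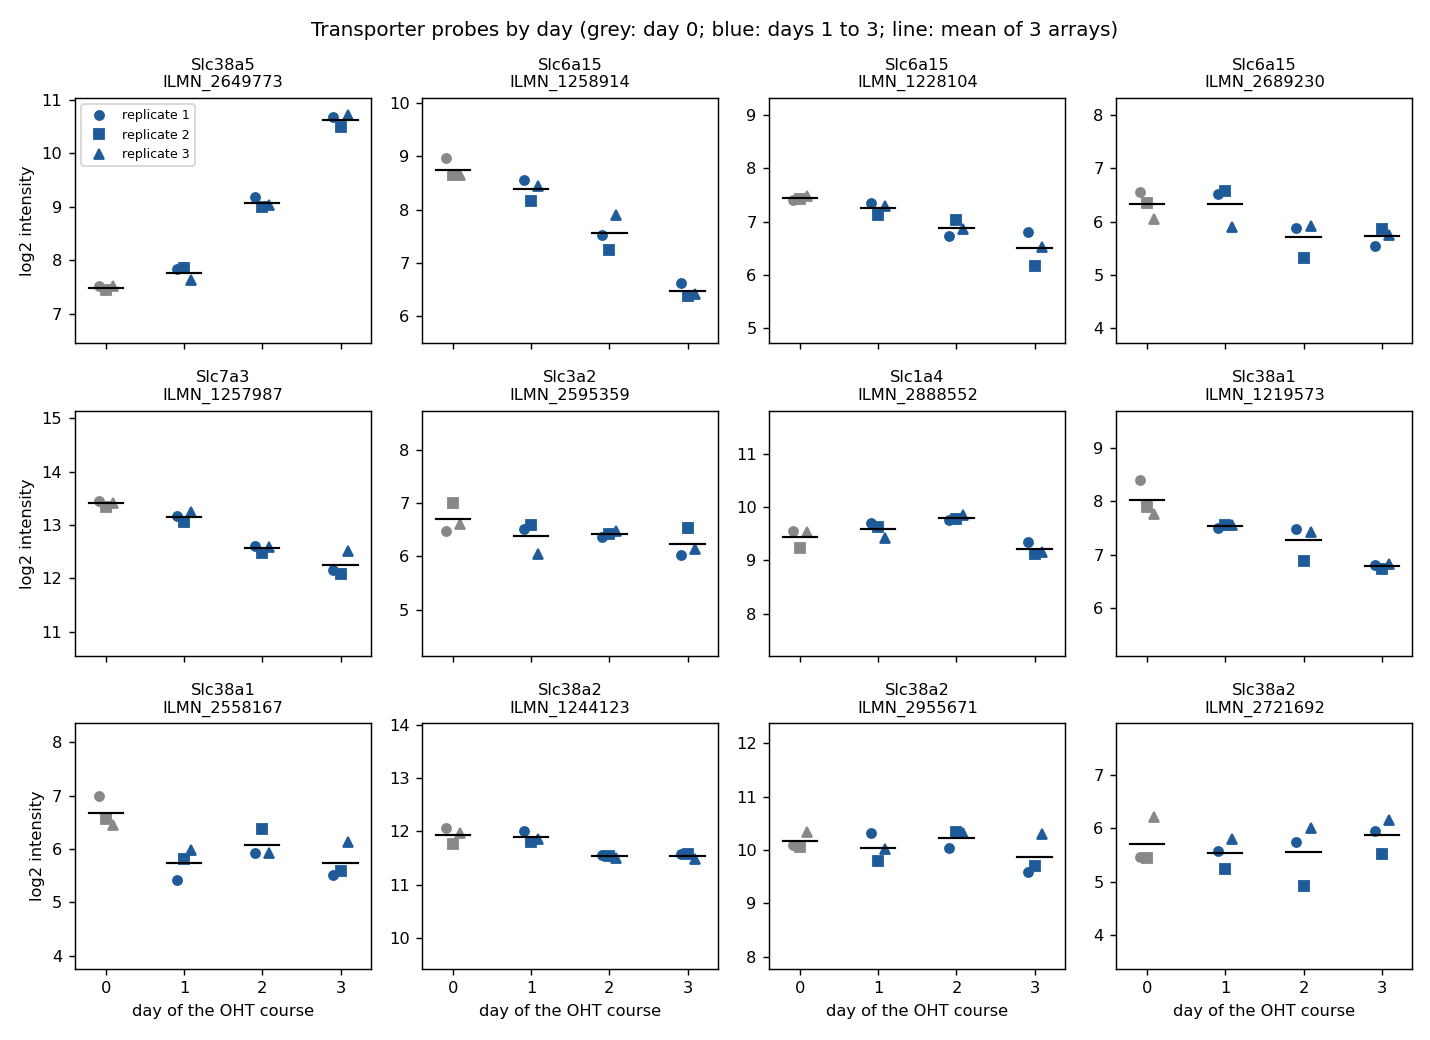
Log2 normalized intensity (y axis, a window of equal height in each panel) against day of the OHT course (x axis) for the 12 transporter probes that were detected on at least 3 arrays; symbols are the 3 replicates, grey at day 0 and blue later, and lines are the means of 3 arrays. The mean of Slc38a5 stepped up each day to 10.64 at day 3, while the means of Slc6a15 ILMN_1258914, Slc7a3 and Slc38a1 ILMN_1219573 stepped down. For Slc7a3 and Slc38a1 most of these single steps did not pass limma's test.

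The same arrays were then tested for the other transporters, which were listed for their function, with earlier results of these data known. Of these 8 genes, 5 had detected probes, 8 probes in all. At day 1 against day 0, 0 of the 8 probes passed limma's test at an adjusted p under 0.05. Of all 14940 detected probes 0.0134% were called, 0.00669% higher and 0.00669% lower. An unadjusted limma p under 0.05 was reached by 2 of the 8 probes and by 1398 of all 14940. At day 2, 3 of the 8 fell and 0 rose, where 7.63% of all probes fell, 11.5% rose and 19.1% were called in all. At day 3, 4 of the 8 fell and 0 rose, where 18.6% of all probes fell, 18.2% rose and 36.8% were called in all. These 4 probes are of 3 genes, Slc7a3, Slc38a1 and Slc38a2, so they are not independent. Across the 4 days limma's F test called 5 of the 8, where it called 33.7% of all probes. The comparisons with day 0 share their 3 day 0 arrays. These tests do not pair arrays by replicate number. In the fit that blocks on replicate number, 5 of the 8 were called at day 3, the added one being Slc3a2. With no scaling between arrays the count was 0 at day 2 and 2 at day 3. The share of all probes called with no scaling is not given here, so whether this loss is particular to these probes cannot be told. Leaving out day 0 replicate 1, or day 2 replicate 2, made the day 2 count 1, and F called 3 on leaving out day 2 replicate 3.

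Slc7a3 encodes CAT3, a carrier of arginine and lysine. Its detected probe (ILMN_1257987) had a log2 intensity of 13.45, 13.34 and 13.42 at day 0, 13.16, 13.06 and 13.25 at day 1, 12.61, 12.48 and 12.60 at day 2, and 12.16, 12.09 and 12.52 at day 3. All arrays of days 1, 2 and 3 lay below those of day 0, and those of day 3 overlapped those of day 2. It fell at day 2 by 0.84 ± 0.13 on the log2 scale (SE; limma adjusted p of 0.000982) and at day 3 by 1.15 ± 0.13 (limma adjusted p of 3.68e-05), which was 2.22-fold. The day 1 difference was -0.25 and did not pass (limma adjusted p of 0.602). The step from day 1 to day 2 was -0.60 (limma adjusted p of 0.0166), where 7.95% of all probes were called, 5.06% higher and 2.89% lower, and 1 of the 8 transporter probes. Leaving out any of 4 arrays ended that call, namely day 1 replicate 1 (0.0576), day 1 replicate 3 (0.064), day 2 replicate 2 (0.0652) and day 2 replicate 3 (0.0505), as did no scaling between arrays (0.493). The step from day 2 to day 3 was -0.31 and did not pass (limma adjusted p of 0.151), although it did without day 3 replicate 3 (-0.44, 0.0309). With no scaling the day 2 fall was -0.73 and did not pass (limma adjusted p of 0.174). The gene's second probe was never detected.

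Slc7a1 encodes CAT1, the widely expressed carrier of the same cationic amino acids. Its 2 probes were detected on 0 arrays, with log2 values of 4.76 to 5.34, under the lowest signal of any detected probe on each array (5.89 to 6.37). No level or change of Slc7a1 can be given from them.

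Slc38a1 and Slc38a2 encode SNAT1 and SNAT2, the sodium-coupled carriers of system A, which take up alanine, serine and glutamine, and the 2 genes lie near each other on chromosome 15. Slc38a1 probe ILMN_1219573 had a log2 intensity of 8.40, 7.90 and 7.77 at day 0, 7.497, 7.56 and 7.55 at day 1, 7.49, 6.88 and 7.44 at day 2, and 6.80, 6.73 and 6.82 at day 3. All later arrays lay below those of day 0. It fell at day 2 by 0.75 ± 0.18 on the log2 scale (SE; limma adjusted p of 0.0136) and at day 3 by 1.24 ± 0.18 (limma adjusted p of 0.000253), 2.36-fold, while the day 1 difference of -0.48 did not pass (limma adjusted p of 0.445). The call at day 2 failed on leaving out day 0 replicate 1 (-0.56, limma adjusted p of 0.055) or day 2 replicate 2 (-0.56, 0.0573) and with no scaling (-0.41, 0.524). The step from day 2 to day 3, -0.49, passed only without day 2 replicate 2 (limma adjusted p of 0.0458) among the settings tried.

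A second Slc38a1 probe, ILMN_2558167, had a log2 intensity of 6.997, 6.57 and 6.44 at day 0, 5.43, 5.82 and 5.97 at day 1, 5.92, 6.37 and 5.92 at day 2, and 5.52, 5.58 and 6.12 at day 3. Arrays that detected it numbered 3, 0, 2 and 1 at days 0, 1, 2 and 3. It fell at day 3 by 0.93 ± 0.21 on the log2 scale (SE; limma adjusted p of 0.00488), a call lost with no scaling between arrays (limma adjusted p of 0.1). Its day 1 level was at least 1.45-fold below day 0, but this did not pass (limma adjusted p of 0.228). The other 2 probes of Slc38a1 were detected on 1 and 0 arrays. The probe detected on 0 arrays, ILMN_2736140, is the only one of the 4 annotated to a RefSeq transcript. Both probes that fell are annotated to cDNA clones, and where each lies on the transcripts was not analysed here.

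Slc38a2 is known as a gene that amino acid shortage raises. Its probe ILMN_1244123 had a log2 intensity of 12.07, 11.76 and 11.97 at day 0, 12.003, 11.81 and 11.87 at day 1, 11.56, 11.54 and 11.50 at day 2, and 11.57, 11.58 and 11.49 at day 3. The arrays of days 2 and 3 lay below those of day 0, and those of day 1 did not. It fell at day 2 by 0.40 ± 0.12 on the log2 scale (SE; limma adjusted p of 0.0297) and at day 3 by 0.39 ± 0.12 (limma adjusted p of 0.0206), which is 1.31-fold. Both calls failed when day 0 replicate 1 was left out (limma adjusted p of 0.104 and 0.0779) or day 0 replicate 3 was (0.0656 and 0.0515), with no scaling (0.718 and 0.229), and in fits of the 2 days alone (0.0726 and 0.0863). The day 2 call was also lost without day 2 replicate 1 (0.0595), 2 (0.0736) or 3 (0.088).

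The gene's other probes did not pass. ILMN_2955671 had a log2 intensity of 10.10, 10.05 and 10.33 at day 0, 10.32, 9.79 and 10.01 at day 1, 10.03, 10.33 and 10.32 at day 2, and 9.58, 9.70 and 10.30 at day 3. Its day 3 arrays overlapped those of day 0, with a difference of -0.30 ± 0.19 (SE; limma adjusted p of 0.251). On leaving out day 3 replicate 3 it passed (-0.52, limma adjusted p of 0.0328). ILMN_2721692 was detected on 4 arrays and differed by 0.16 at day 3 (limma adjusted p of 0.691).

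Slc1a4 encodes ASCT1, an exchanger of alanine, serine, cysteine and threonine. Its probe (ILMN_2888552) had a log2 intensity of 9.56, 9.24 and 9.53 at day 0, 9.69, 9.63 and 9.42 at day 1, 9.76, 9.79 and 9.86 at day 2, and 9.34, 9.12 and 9.16 at day 3. The day 2 arrays lay above all others, and those of day 3 overlapped day 0. Against day 0 the difference was 0.36 ± 0.13 at day 2 (SE; limma adjusted p of 0.0709) and -0.23 ± 0.13 at day 3 (limma adjusted p of 0.175). The day 2 difference passed with no background correction (0.29, limma adjusted p of 0.0324) and in the authors' deposited normalized values (0.30, 0.0344). Day 3 was lower than day 2 by 0.59 on the log2 scale (limma adjusted p of 0.0143), where 9.87% of all probes were called, 4.6% higher and 5.27% lower, and 1 of the 8 transporter probes. That call was lost without day 2 replicate 3 (0.0584), without day 3 replicate 2 (0.0559) and with no scaling (0.105). F across the 4 days had a limma adjusted p of 0.0176.

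Slc1a5 encodes ASCT2, an exchanger of glutamine and other neutral amino acids. Its 5 probes were detected on 0 of the 12 arrays, with log2 values of 4.69 to 5.85, so no level or change is given.

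Slc3a2 encodes the heavy chain 4F2hc (CD98), which brings several SLC7 light chains to the membrane. Its probe (ILMN_2595359) had a log2 intensity of 6.48, 7.01 and 6.61 at day 0, 6.51, 6.59 and 6.04 at day 1, 6.36, 6.43 and 6.47 at day 2, and 6.04, 6.53 and 6.14 at day 3. These values lie near the lowest detected signal, and the days overlapped except day 2 and day 0. The day 3 difference of -0.46 ± 0.19 (SE) did not pass (limma adjusted p of 0.0689). In the fit that blocks on replicate number, as arrays with the same number deviated together in days 3 and 0, it passed (limma adjusted p of 0.0279), as it did without day 3 replicate 2 (-0.62, 0.0306) or day 1 replicate 3 (-0.46, 0.0495).

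**Figure D2:**
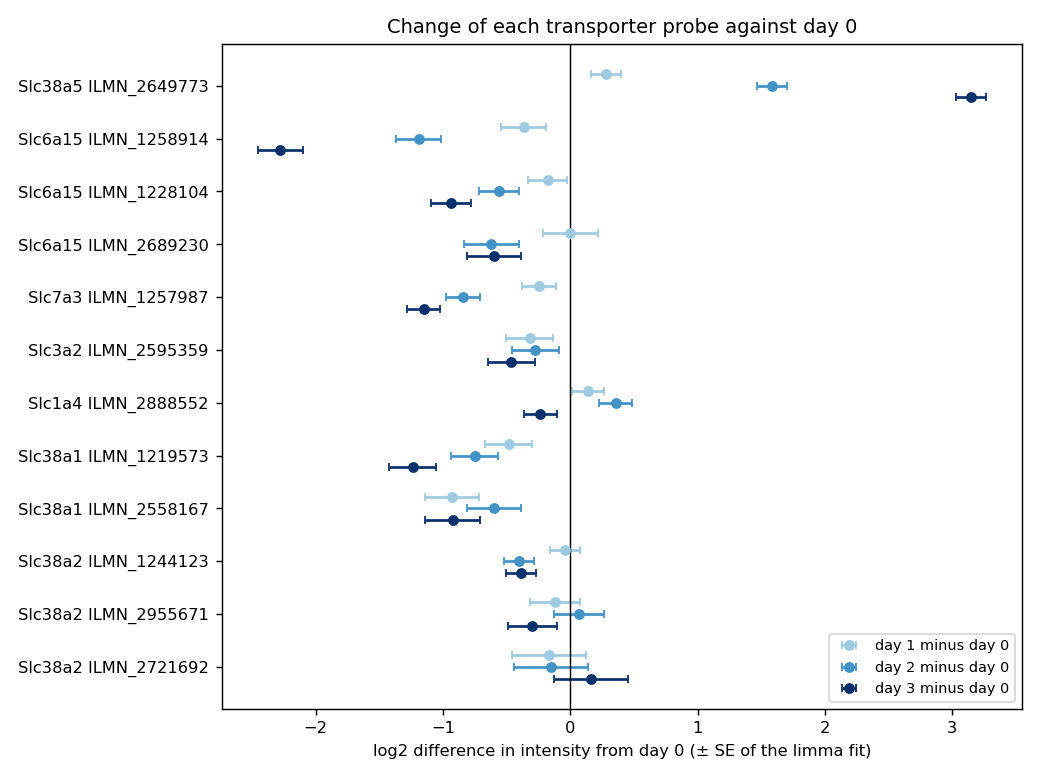
Log2 difference in intensity from day 0 (x axis, with bars of ± SE from the limma fit) for each of the 12 detected transporter probes (y axis) at days 1, 2 and 3, light to dark blue. Slc38a5 reached 3.15 at day 3, Slc6a15 ILMN_1258914 reached -2.28, and the probes of Slc38a2 stayed between -0.40 and 0.16 at days 2 and 3.

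Among all 9934 genes, each represented by its brightest detected probe, the day 3 difference of Slc38a5 ranked 5 from the top and that of Slc6a15 ranked 6 from the bottom, which describes why they were picked. The median day 3 difference of all genes was 0.01. Each pattern over the 12 arrays was set beside those of other genes by Pearson's r, as a description, since the arrays share their days. Genes with clone-type or provisional names were left out. The genes most like Slc38a5 were Pramel14 (0.991), Crygd (0.99), Phf13 (0.99), Pramel39 (0.99) and Pramel37 (0.987). The Pramel genes belong to a family of near-identical copies, so their probes may be uncertain, and Crygd encodes a lens crystallin. The mean log2 intensity of Crygd at day 0 was 4.96, under the lowest detected signal of any array (5.89). Its day 0 level is thus not above background. Those most like Slc6a15 were Gli2 (0.984), Gpt2 (0.982), Cwf19l2 (0.98), Fancd2 (0.975) and Hnrnpa2b1 (0.974). Gli2 is a transcription factor of Hedgehog signalling, and Fancd2 acts in DNA crosslink repair.

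**Figure D3:**
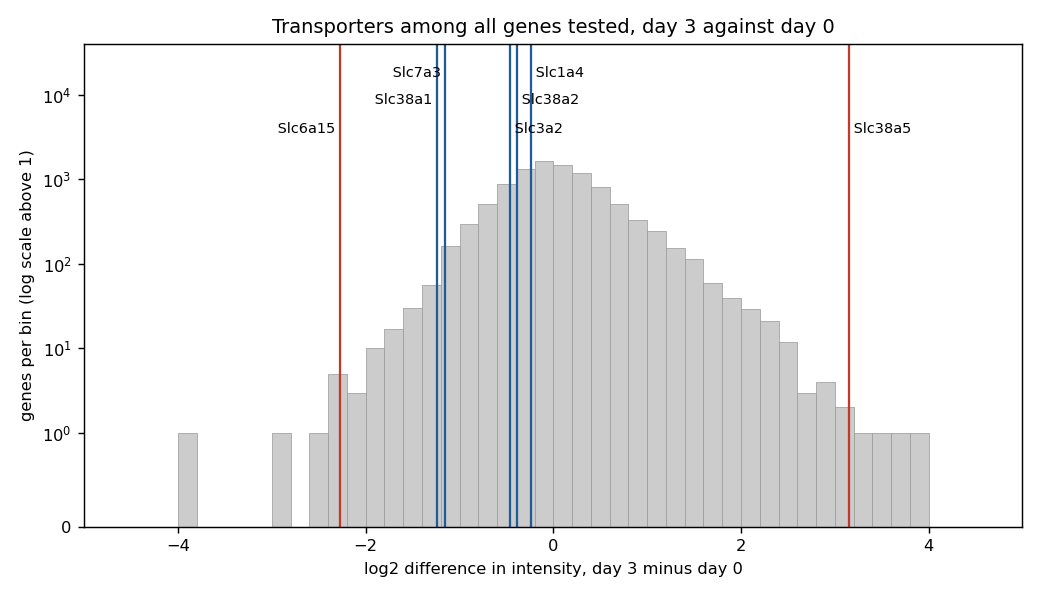
Number of genes per bin (y axis, log scale above 1) by log2 difference in intensity, day 3 minus day 0 (x axis, bins of 0.2), over 9934 genes, with the 7 transporters that had a detected probe as lines, red for the 2 genes picked for their change and blue for the others. Slc38a5 lies at 3.15 and Slc6a15 at -2.28, while Slc38a1 (-1.24) and Slc7a3 (-1.15) lie on the lower shoulder.

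Transporters outside the group were taken from a list of 53, of which 50 had a probe and 25 were measured, while 17 were never detected. At day 3 against day 0, 6 of the 25 rose and 6 fell, where 20.7% of all genes rose and 17.1% fell, and the median difference was -0.08 against 0.01 for all genes. At day 2, 4 rose and 3 fell, where 13.8% of all genes rose and 6.65% fell, and these 7 calls were 4 without day 0 replicate 1 or day 2 replicate 2. The largest rise was that of Slc1a1, the glutamate, aspartate and cysteine carrier EAAC1, at 8.62 ± 0.19 at day 3 against 7.17 ± 0.17 at day 0 (SD, n = 3 each), a log2 difference of 1.45. Slc38a9 (0.92), a lysosomal arginine sensor of the SLC38 family, also rose, as did the Slc3a2 partner Slc7a7 (0.76) and the lysosomal cationic amino acid exporter Slc66a1 (0.72). The peptide carrier Slc15a2 (0.55) and Slc7a6 (0.39), another partner of Slc3a2, rose less. Arrays that detected Slc15a2 numbered 1, 1, 3 and 3 at days 0, 1, 2 and 3, so it entered the test only through later days. Its place among the genes that rose at day 2 and at day 3 rests on that. Slc43a1, the large neutral amino acid carrier LAT3, fell most, to 6.72 ± 0.28 at day 3 against 7.76 ± 0.13 at day 0, a log2 difference of -1.04. The mitochondrial aspartate-glutamate carrier Slc25a12 (-0.82), the lysosomal histidine and peptide carrier Slc15a4 (-0.81), the lysosomal glutamine exporter Slc38a7 (-0.69), the glutamate carrier Slc1a3 (-0.60) and the glycine carrier Slc6a9 (-0.52) fell as well. Limma adjusted p values of these 12 ran from 1.66e-05 for Slc1a1 to 0.0429 for Slc6a9. With no scaling between arrays 9 of the 12 did not pass (0.0564 to 0.528), all but Slc1a1, Slc43a1 and Slc25a12. Slc6a9 failed in 13 of its 22 alternatives, also with cyclic loess, no background correction, no filter, the deposited normalized values and the 2 days alone (0.0518 to 0.0814 in those), and Slc15a2 failed in 9 of 21. Leaving out single arrays also ended some calls. That of Slc25a12 was lost without day 0 replicate 2 (0.0551), and Slc7a6 did not pass on leaving out day 0 replicate 2 (0.052) or day 3 replicate 3 (0.0594). Slc15a2 did not pass on leaving out day 0 replicate 1 (0.071), day 0 replicate 2 (0.15), day 2 replicate 2 (0.0513) or day 3 replicate 2 (0.143). Slc6a9 did not pass on leaving out day 0 replicate 1 (0.0824) or 2 (0.137), day 1 replicate 1 (0.053), day 2 replicate 2 (0.0526) or 3 (0.051), and day 3 replicate 1 (0.0509) or 3 (0.143).

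Amino acid sensing and mTORC1, the growth pathway that imported amino acids switch on at the lysosome, was described from a list of 42 genes, 35 of them measured. At day 3, 3 rose and 6 fell, where 20.7% of all genes rose and 17.1% fell, and the median difference was -0.01 against 0.01 for all genes. At day 2, 2 rose and 4 fell, where 13.8% of all genes rose and 6.65% fell, with 3 calls in place of 6 without day 0 replicate 1, day 2 replicate 1 or day 2 replicate 3. Sesn2, a stress-induced leucine sensor, fell by 1.03 ± 0.16 on the log2 scale (SE; limma adjusted p of 0.000328). Seh1l (-0.83) and Mios (-0.78), both of the GATOR2 complex that activates mTORC1, the mTOR complex subunit Mlst8 (-0.71), the Rag GTPase Rragb (-0.56) and the transcription factor Atf4 (-0.55) also fell. Castor2, of the family of arginine sensors, was undetected at day 0 and at least 1.8-fold higher at day 3. It was detected on 0, 1, 3 and 3 arrays of days 0, 1, 2 and 3, so it entered the test only through later days, and its place among the 3 genes that rose rests on that. Nprl2 (0.72) and Nprl3 (0.47), subunits of GATOR1, which inhibits mTORC1, rose. Nprl3 did not pass when day 0 replicate 1 (limma adjusted p of 0.0752), day 0 replicate 2 (0.0652) or day 3 replicate 1 (0.0889) was left out. Atf4 did not pass when day 0 replicate 1 (0.0966), day 0 replicate 3 (0.0736), day 3 replicate 1 (0.136) or day 3 replicate 2 (0.0786) was left out. With no scaling Nprl2, Nprl3, Mios, Rragb and Atf4 did not pass (0.0903 to 0.464), in fits of the 2 days alone Nprl3 (0.0621) and Atf4 (0.0858) did not, and with no filter on dim probes Atf4 did not (0.0624).

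Enzymes that make or break down amino acids were 26 measured of 38 listed. At day 3, 2 rose and 9 fell, where 20.7% of all genes rose and 17.1% fell, and the median difference was -0.19 against 0.01 for all genes. At day 2, 2 rose and 5 fell, where 13.8% of all genes rose and 6.65% fell. Those 7 calls at day 2 became 2 on leaving out day 2 replicate 3. They became 3 on leaving out day 0 replicate 1 or 2, and 4 on leaving out day 0 replicate 3, day 2 replicate 1 or day 2 replicate 2. Cth, which makes cysteine from cystathionine, fell to 8.73 ± 0.18 at day 3 against 10.15 ± 0.40 at day 0 (SD, n = 3 each), a log2 difference of -1.42 (limma adjusted p of 0.000198). The mitochondrial alanine transaminase Gpt2 fell by 1.01 on the log2 scale (limma adjusted p of 4.01e-05), and it was also among the genes most like Slc6a15. The branched-chain enzymes Bcat2 (-0.84) and Bckdha (-0.82), the mitochondrial serine enzyme Shmt2 (-0.72) and the folate enzyme Mthfd2 (-0.56) were among the other 7. Arg2, the mitochondrial arginase (0.75), and Asl, which makes arginine (0.57), rose. The Asl call had a limma adjusted p of 0.0451 and failed in 8 of the 12 fits that left out 1 array each, namely day 0 replicate 1 (0.108) or 3 (0.168), day 1 replicate 1 (0.0586), 2 (0.0546) or 3 (0.0554), day 2 replicate 2 (0.0573) or 3 (0.056), or day 3 replicate 1 (0.181). Asl also failed with no filter (0.0896) and in the fit of the 2 days alone (0.114), and with no scaling Arg2, Asl and Mthfd2 failed (0.099 to 0.286).

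Of 12 partners and regulators of transporter traffic, 6 were measured, and at day 3, 2 rose and 2 fell, where 20.7% of all genes rose and 17.1% fell. With no scaling between arrays 4 of these 4 calls were lost (limma adjusted p of 0.0864 to 0.41). The kinase Sgk3 (0.89, limma adjusted p of 0.000762) and the ubiquitin ligase Nedd4l (0.57, limma adjusted p of 0.00399), which marks membrane carriers for removal, rose. The related kinase Sgk1 (-0.55, limma adjusted p of 0.0143) and the arrestin-fold protein Txnip (-0.47, limma adjusted p of 0.00619) fell. Txnip had been higher than day 0 at day 2, by 0.76 (limma adjusted p of 0.000744). Sgk1 did not pass when day 0 replicate 1 (limma adjusted p of 0.0555) or day 3 replicate 2 (0.0637) was left out.

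**Figure D4:**
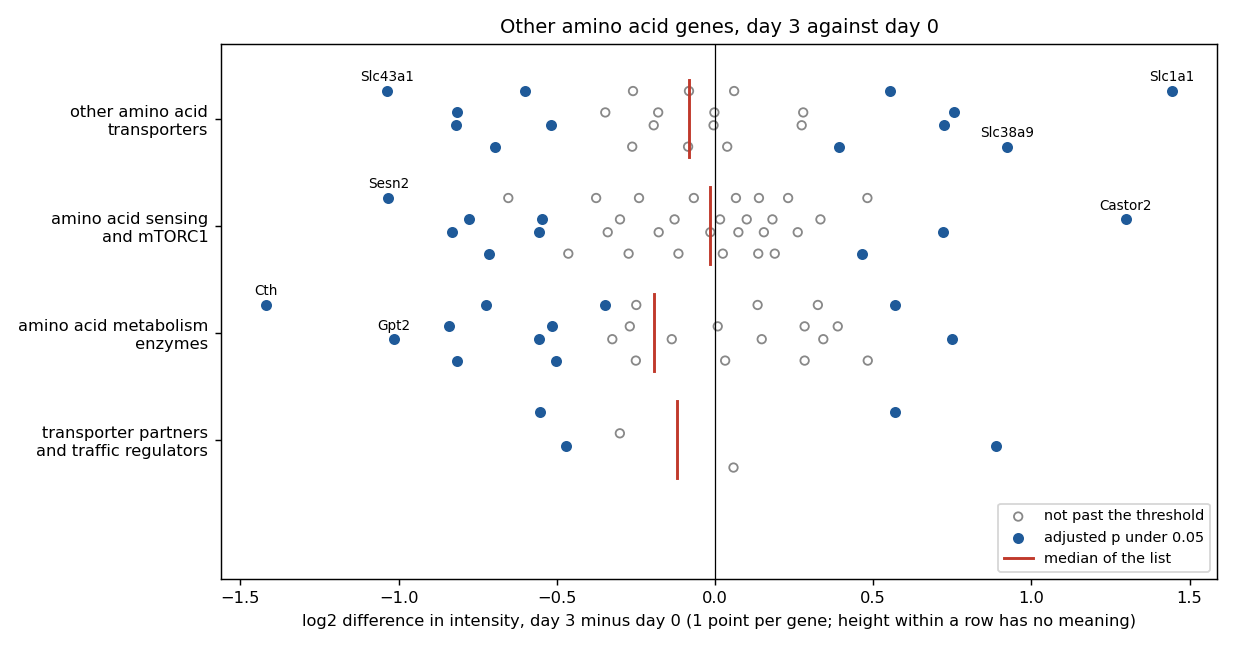
Log2 difference in intensity, day 3 minus day 0 (x axis), for each measured gene of the 4 lists (rows), filled where limma's adjusted p was under 0.05 and open otherwise, with the median of each list in red. Slc1a1 (1.45) and Castor2 lie farthest right, and Cth (-1.42), Slc43a1 (-1.04), Sesn2 (-1.03) and Gpt2 (-1.01) farthest left.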

How the data were processed

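RNA of 12 samples was measured on Illumina bead arrays, 1 array per sample. The authors' deposited table gives, per probe, a linear intensity and a detection p-value for each array, which per the submitters' processing notes come from GenomeStudio (version not given in the sources used here). A second deposited table holds the authors' normalized values, used as an alternative. All else was computed here. Background correction and quantile normalization used neqc (offset 16), in limma 3.58.1 under R 4.3.3, and gave log2 intensity from the deposited values. Probes with 1 gene symbol, detected (p under 0.01) on at least 3 of 12 arrays, were tested, 14940 of 45281. Of all probes, 34885 had 1 symbol, 18 several and 10378 none, and 34807 matched RefSeq (GRCm38.p6) by gene ID. One mean per day was fitted over all 12 arrays with lmFit and eBayes, and calls used a Benjamini-Hochberg adjusted p under 0.05 over all 14940 probes. Where a group had no detected array, "at least N-fold" sets the bright group's mean against the higher, per array, of the dim probe's value and the lowest detected signal. Lists and patterns used each gene's detected probe with the highest mean. The rule for named genes took all transporters of the list and up to 6 called genes per other list and direction at day 3. Slc7a5 was not analysed here. The members and lists were chosen with earlier results of these data known. Deviations of equally numbered arrays correlated at 0.187 to 0.43 for days 1 and 0, and at 0.269 to 0.406 for days 3 and 0. Each pair there was above 0.1, so the replicate numbers may be pairs in those comparisons. The main fit had no block, and its p-values leave that pairing out. All comparisons were also fitted with the replicate block as an alternative. The number of arrays limits precision.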

Additional observations from a re-analysis of the deposited data

Results flagged for a closer look

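Among the tested transporters, 2 showed a change that differed between later days by the test of the step itself. That is 1 of the 8 tested probes in each step. Of all probes, 9.87% were called at day 3 against day 2 and 7.95% at day 2 against day 1. Slc1a4 was lower at day 3 than at day 2 by a log2 difference of -0.59 (limma adjusted p of 0.0143), with means of 9.21 ± 0.12 at day 3 and 9.80 ± 0.05 at day 2 (SD, n = 3 each), while neither day passed against day 0. Slc7a3 was lower at day 2 than at day 1 by -0.60 (limma adjusted p of 0.0166), with means of 12.56 ± 0.07 at day 2 and 13.16 ± 0.10 at day 1 (SD, n = 3 each). Of the 12 fits that left out 1 array each, the Slc1a4 call was lost in 2 and the Slc7a3 call in 4. Both calls were also lost with no scaling between arrays.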

How the results depend on the processing

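Among 22 alternatives, 12 of which left out 1 array each, no call of a tested transporter reversed in direction. Slc38a1 ILMN_2558167 and Slc38a2 ILMN_2721692 had a value in 20 of them, and Slc3a2 and Slc38a2 ILMN_2955671 in 21, as detection on all 12 arrays or 1 probe per gene left those probes out. With no scaling between arrays, which moved the median of all probes to 0.24 at day 2 and -0.12 at day 3 (against -0.01 and -0.03), the transporter probes called were 0 at day 2 against day 0, 2 at day 3 against day 0, 0 at day 2 against day 1, 0 at day 3 against day 2 and 2 by F, the other transporters 3 at day 2 and 3 at day 3, the sensing genes 1 and 4, the enzymes 0 and 5, and the partners 0 and 0. Scaling to the 75th percentile moved that median to -0.11 at day 2. The step from day 1 to day 2 called 2 probes with that scaling, with no background correction, in the deposited normalized values and with the replicate block. With the block the counts were otherwise 0 at day 1, 4 at day 2 and 5 at day 3 against day 0, 1 at day 3 against day 2 and 5 by F. In the block fit Slc1a4 passed at day 2 (limma adjusted p of 0.049). The enzymes called were 17 at day 3 with no background correction, and 4 at day 2 with no filter on dim probes or in fits of the 2 days alone. The partners called at day 2 were 1 with the 75th percentile, with no filter and in fits of the 2 days alone. On leaving out 1 array, transporter probes called against day 0 spanned 0 to 0 (day 1), 1 to 4 (day 2) and 3 to 5 (day 3), those called at day 2 against day 1 spanned 0 to 1, those at day 3 against day 2 spanned 0 to 3, and F called 3 to 5. For days 2 and 3 against day 0, other transporters spanned 4 to 8 and 8 to 12, sensing genes 3 to 7 and 7 to 10, enzymes 2 to 8 and 9 to 12, and partners 1 to 2 and 3 to 4. Where no cause shows in the setting itself, the cause was not tested. The counts under these alternatives are given without the share of all probes called in the same setting. They therefore do not tell a loss of calls over all probes from one particular to these genes. A fit with the chip as a block was not run, since the column names give no chip. Slc7a1, Slc1a5 and other probes never above background have no level here.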
